A study of Mus musculus with 16 samples.

Results

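Mouse bone marrow-derived monocytes received the compound PFM037 and tumour necrosis factor (TNF) in a full factorial design, and the question addressed here is whether the transcript changes made by each treatment add up when both are present. All 16 of the 16 libraries entered the contrast, 4 from each group, and 13856 of the 50508 genes in the deposited table were measured well enough to be tested. Cells of 4 wild-type animals (WT1 to WT4) were used, and each animal supplied a library to every group. Every group, the controls included, received macrophage colony-stimulating factor (M-CSF), and RNA was taken after 24 h. The groups were vehicle, PFM037 alone, TNF alone, and PFM037 together with TNF. PFM037 has only a code name in the labels. No dose or target of PFM037, no dose of TNF, and no strain, age or sex is stated in the sources used here.

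TNF binds the receptors TNFR1 and TNFR2, and the resulting loss of IkB proteins releases NF-kB, which switches on cytokines, chemokines, survival genes and its own inhibitors. In monocytes growing in M-CSF, a cytokine that drives macrophage maturation and division, TNF is known to favour inflammatory over tissue-macrophage genes. For each gene the interaction was computed within each animal as the log2 change with PFM037 in the presence of TNF minus the log2 change with PFM037 in its absence. An interaction of 0 means that the 2 fold changes multiply, which is additivity on the log2 scale. A positive value means that the level with both treatments lay above the product of the separate fold changes, and a negative value that it lay below.

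Library totals ran from 9403232 to 21017905 counts, both of them in the TNF group. Animals 1 and 2 stood apart from animals 3 and 4 in every group, with interferon-stimulated genes low in the former, so results are given by animal and with animals left out. All 12 defining markers of monocytes and macrophages were present in every group and summed to 24458 to 45769 CPM (counts scaled to a common library total) per library. The 15 neutrophil markers summed to 11331 to 27848 CPM, so RNA of granulocytic cells was also present. Markers of mast cells, basophils and eosinophils summed to 201 to 831 CPM, erythroid and megakaryocyte markers to 1004 to 3876 CPM, dendritic cell markers to 478 to 864 CPM, lymphocyte markers to 76.6 to 130 CPM and stromal and endothelial markers to 51.7 to 74.5 CPM. The mast cell protease Tpsb2 was at 0 without TNF, and the stromal genes Col3a1, Dcn and Lum were at 0 in the vehicle, PFM037 and TNF groups. Pdgfra was at 0 with both treatments, Xcr1 with vehicle, and Car1 with vehicle and with both treatments. In such bulk samples, fewer cells of a type and less RNA per cell cannot be told apart.

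No gene departed from additivity by the test across all genes. Of 13856 genes, 0 (0%) passed an adjusted p of 0.05 for the interaction (edgeR's quasi-likelihood test with Benjamini-Hochberg adjustment), and the smallest adjusted p was 0.99988. At an unadjusted p under 0.05 there were 383 genes (2.76%), of which 181 (1.31%) lay above 0 and 202 (1.46%) below it. That share is under the 0.05 that exact p-values give where no gene departs, so this test may be conservative. Its error pools the differences between animals in the TNF effect, the PFM037 effect and the interaction. DESeq2 called 0 with 263 at an unadjusted p under 0.05, limma-voom 0 with 442, and limma on a single contrast value per animal 0 with 744 and a smallest adjusted p of 0.186. With no filter on low counts, edgeR called 34 genes, in a fit that replaced each gene's own spread by the trend over all genes. A p that misses the threshold does not show that a gene is additive, so the size of the interaction was tested against a margin of 1.5-fold in either direction. By this equivalence test 8978 genes (64.8%) were additive within 1.5-fold, and the remaining 4878 (35.2%) could be assigned neither way.

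The genes that could not be assigned were mostly weakly expressed. Among the 4588 genes with a mean of 50 CPM or more, 4432 (96.6%) were additive within 1.5-fold, with a median 95% margin of error of 0.22 on the log2 scale. Of the 5229 genes between 5 and 50 CPM, 4400 (84.1%) were, with a margin of 0.31. Of the 4039 genes under 5 CPM only 146 (3.61%) were, with a margin of 0.91, so departures of that size were not detectable there at this depth. Over all genes the median interaction was 0.01 and the median absolute value 0.10 on the log2 scale. The central 90% of genes lay between -0.47 and 0.38, and 12803 genes (92.4%) had an absolute value under 0.5.

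Most genes that either treatment changed were additive within 1.5-fold, a margin wider than the median size of the changes themselves. TNF, averaged over its effects with and without PFM037, changed 5136 genes (37.1%), of which 2464 (17.8%) rose and 2672 (19.3%) fell. PFM037, averaged in the same way, changed 688 genes (4.97%), of which 300 (2.17%) rose and 388 (2.8%) fell. Under scaling by library size alone the splits were 1727 higher and 3891 lower for TNF, and 541 higher and 278 lower for PFM037. Of the 5136 genes changed by TNF, 3942 (76.8%) were additive within 1.5-fold, against 57.8% of the other genes, and of the 688 changed by PFM037, 546 (79.4%) were, against 64.0%. Genes that passed also had smaller errors, on which the equivalence test rests. Their median 95% margin of error for the interaction was 0.29 on the log2 scale for TNF and 0.27 for PFM037, against 0.32 over all genes, so these shares are not compared further. Without the animal as a block PFM037 changed 0 genes (smallest adjusted p 0.236) and TNF 1280, and PFM037 also changed 0 by limma on a single value per animal (smallest adjusted p 0.0628, with 2242 at an unadjusted p under 0.05). The PFM037 count was 124 when animal 1 was left out, and 339, 367 and 167 when animals 2, 3 and 4 were, respectively.

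**Figure D1:**
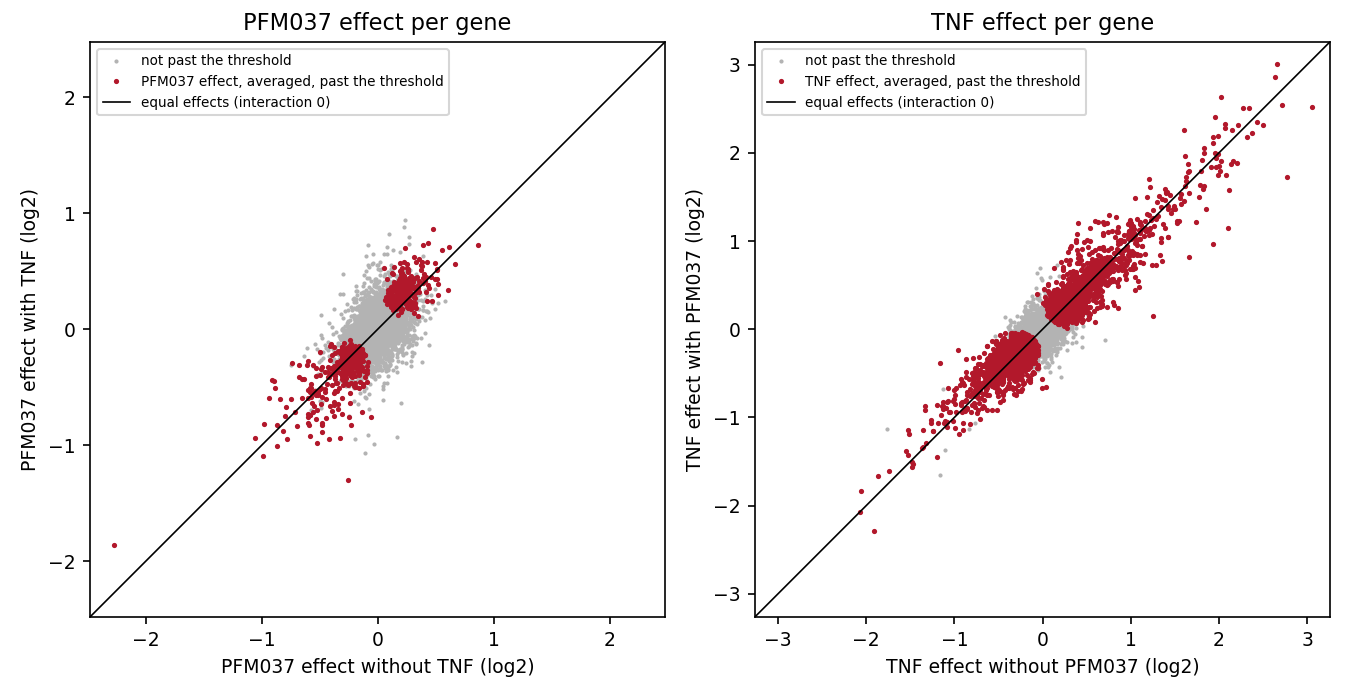
Effect of PFM037 without TNF (x axis) against its effect with TNF (y axis), and the same for TNF without and with PFM037, in log2 per gene over 9817 genes with a mean of at least 5 CPM. Genes whose averaged effect passed the threshold are red, the line marks equal effects (interaction 0), and the genes scatter around that line in both panels.

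The effects of a treatment measured with and without the other share no library, and they could be compared directly. Taken singly, PFM037 changed 11 genes (0.0794%) without TNF and 188 (1.36%) with it, and TNF changed 2692 genes (19.4%) without PFM037 and 2828 (20.4%) with it. Such counts depend on which side of a threshold a gene falls, and the difference itself is the interaction, for which 0 genes passed. Over the 9817 genes with a mean of at least 5 CPM, the TNF effect without PFM037 and the TNF effect with it correlated at r = 0.92 across genes. For PFM037 without and with TNF the correlation across genes was r = 0.64. Genes are not independent replicates, and the 4 animals are common to both sides. Relative to the direction of the TNF effect, the median interaction of TNF-changed genes was -0.002 (-0.09, 0.01, 0.02 and 0.07 in animals 1 to 4). For the genes changed by PFM037 it was 0.07 along the direction of the PFM037 effect (0.04, 0.01, 0.18 and 0.02 in animals 1 to 4), with 495 of 688 above 0, and animal 3 held the highest value. Of these 688 genes 42 (6.1%) had an unadjusted p under 0.05 for the interaction, against 2.76% of all genes, and 0 passed the adjusted threshold.

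The per-animal contrasts of the interaction were little alike from animal to animal. Over the same 9817 genes the interaction correlated between animals at r = -0.13 to 0.27. Animals 1 and 2 gave 0.27 and animals 3 and 4 gave 0.20, whereas the other 4 pairs lay between -0.13 and -0.01. Between animals the averaged PFM037 effect correlated at 0.18 to 0.51 and the averaged TNF effect at 0.69 to 0.79. Within an animal the interaction is the difference of 2 effects and an averaged effect is their mean, so the interaction holds more library error. That alone lowers its correlations and its share of equal signs. The PFM037 effect correlated at 0.04 to 0.49 without TNF and at 0.17 to 0.45 with it. The interaction had the same sign in all 4 animals for 1374 genes (14.0%), the averaged PFM037 effect for 3043 (31.0%) and the averaged TNF effect for 5101 (52.0%).

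**Figure D2:**
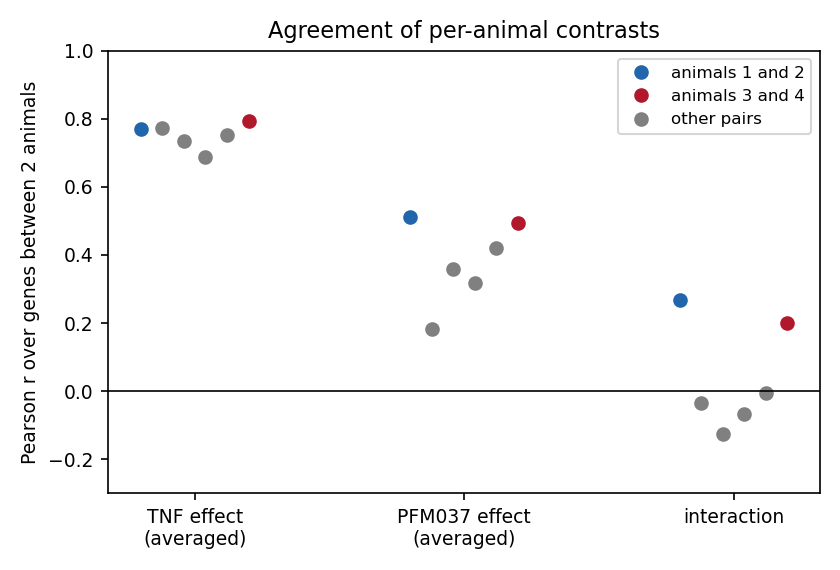
Pearson correlation over 9817 genes between the contrasts of 2 animals, for the averaged TNF effect, the averaged PFM037 effect and the interaction; each point is a pair of animals. The TNF points lie at 0.69 to 0.79, the PFM037 points at 0.18 to 0.51 and the interaction points at -0.13 to 0.27, with animals 1 and 2 and animals 3 and 4 the only pairs above 0.

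Among core genes of the TNF response no interaction passed the threshold, and additivity within 1.5-fold was shown for a part of them. Tnfaip3, which encodes the NF-kB feedback inhibitor A20, stood at 93.7, 77.2, 106 and 115 CPM with vehicle in animals 1 to 4, at 87.1, 64.3, 94.9 and 92.6 with PFM037, at 466, 415, 472 and 304 with TNF and at 443, 411, 495 and 303 with both. All 8 libraries with TNF lay above all 8 without it. Within animals the PFM037 library lay below its vehicle control in all 4, by -0.31 to -0.10 on the log2 scale, whereas under TNF the difference ran from -0.07 to 0.07. It rose with TNF (log2 2.18, SE 0.10, adjusted p = 3.28e-10), with an interaction of 0.21 (SE 0.20). Nfkbia, the inhibitor IkB alpha, stood at 176, 178, 195 and 173 CPM with vehicle, 168, 159.9, 162 and 144 with PFM037, 659, 623, 628 and 398 with TNF and 676, 575, 580.4 and 390.5 with both. Animal 4 had the lowest level in both TNF groups. PFM037 without TNF gave -0.26 to -0.07 on the log2 scale within animals, and -0.12 to 0.04 with TNF. Nfkbia rose with TNF (log2 1.72, SE 0.07, adjusted p = 3.23e-10), its interaction was 0.13 (SE 0.14), and it was additive within 1.5-fold (equivalence adjusted p = 0.00596).

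Of the 33 genes in the NF-kB and TNF response list, all 33 passed the filter on low counts. With TNF 30 rose and 1 fell, against 17.8% and 19.3% of all genes, and 25 were additive within 1.5-fold. The additive share was 64.8% over all genes and 76.8% over all genes changed by TNF. The list's median interaction was 0.14 against 0.01 over all genes, with 28 of 33 above 0 against 54.4% of all genes, and 0 members passed. The medians in animals 1 to 4 were 0.11, 0.04, 0.09 and 0.16. Between fits with a library left out this median ran from 0.03 without vehicle of animal 4 to 0.21 without both treatments of animal 4. The median TNF effect of the list was 0.77 without PFM037 and 0.92 with it. Cflar, the caspase-8 inhibitor cFLIP, had an interaction of 0.23 (SE 0.16), and Bcl3, a nuclear IkB protein, 0.23 (SE 0.17).

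The ligand and its receptors gave no departure past the threshold either. Tnf stood at 50.4, 52.0, 53.6 and 48.4 CPM with vehicle in animals 1 to 4, 58.9, 61.5, 48.2 and 41.2 with PFM037, 178, 196, 153 and 77.3 with TNF and 192, 175, 138 and 71.8 with both. Every TNF library lay above every library without TNF, and animal 4 was the lowest in both TNF groups. Tnf rose with TNF (log2 1.44, adjusted p = 8.6e-08) and its interaction was -0.09 (SE 0.23, equivalence adjusted p = 0.0345). The receptor gene Tnfrsf1b rose with TNF (log2 1.12, adjusted p = 1.91e-06) and fell with PFM037 (log2 -0.42, adjusted p = 0.0497), with an interaction of 0.01 (SE 0.23). Tnfrsf1a, the other TNF receptor, fell with TNF by 0.15 on the log2 scale (adjusted p = 0.0181) with an interaction of -0.04. Csf1r, the M-CSF receptor, rose with TNF (log2 0.40, adjusted p = 1.51e-05) with an interaction of -0.01 (SE 0.10), and all 3 receptors were additive within 1.5-fold.

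Among the genes raised most by TNF, Ptges, an inducible prostaglandin E synthase, was also lowered by PFM037. Its level was 6.52, 7.71, 8.03 and 8.87 CPM with vehicle, 6.31, 5.52, 5.08 and 7.04 with PFM037, 60.2, 66.4, 42.3 and 35.6 with TNF and 35.2, 44.0, 28.0 and 34.6 with both in animals 1 to 4. PFM037 libraries were lower than their controls in every animal, by -0.65 to -0.05 on the log2 scale without TNF and -0.77 to -0.04 with it. Ptges rose with TNF (log2 2.63, SE 0.12, adjusted p = 3.23e-10), fell with PFM037 (log2 -0.45, SE 0.12, adjusted p = 0.0381) and had an interaction of -0.17 (SE 0.24). Its PFM037 effect was -0.37 without TNF and -0.53 with it. The other genes raised most were Gpr84, which senses medium-chain fatty acids, Plpp1, a lipid phosphate phosphatase, Acod1, which makes itaconate, Ly6i, a Ly6 family surface protein, and the scavenger receptor Marco. Their TNF effects ran from 2.41 to 2.84 on the log2 scale and their interactions from -0.54 (Plpp1, SE 0.34) to 0.34 (Gpr84, SE 0.29).

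Gas6, the secreted ligand of the efferocytosis receptors Axl and Mertk, was lowered by both treatments. It stood at 59.8, 27.4, 36.8 and 45.1 CPM with vehicle, 27.4, 11.3, 36.1 and 41.9 with PFM037, 14.6, 5.48, 14.3 and 13.8 with TNF and 7.10, 4.68, 12.3 and 11.4 with both in animals 1 to 4. Animal 2 held the lowest value in every group. Gas6 fell with TNF (log2 -1.77, SE 0.14, adjusted p = 7.73e-08) and with PFM037 (log2 -0.53, SE 0.14, adjusted p = 0.0394). Its interaction was 0.20 (SE 0.28), and 0.10, 1.05, -0.19 and -0.16 in animals 1 to 4. The other genes lowered most by TNF were Hpgd, which breaks down prostaglandins, Cbr2, a carbonyl reductase, the Fc receptor-like gene Fcrls, the lipid carrier Apoe and the nuclear receptor Pparg. Their TNF effects ran from -2.10 to -1.52 and their interactions from -0.37 (Hpgd, SE 0.29) to 0.22 (Fcrls, SE 0.32). Of the 12 genes changed most by TNF, only Pparg passed the equivalence test (adjusted p = 0.0293), and the others could be assigned neither way.

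Of the 12 genes changed most by PFM037, 4 were additive within 1.5-fold (Cgnl1, Ear1, Ear2 and Alox15), and the other 8 could be assigned neither way. Cgnl1, a protein of cell junctions, stood at 26.6, 35.4, 23.01 and 28.3 CPM with vehicle, 16.7, 19.3, 8.20 and 11.2 with PFM037, 32.1, 55.9, 26.3 and 24.3 with TNF and 14.0, 27.6, 11.9 and 18.6 with both. The PFM037 library was below its control in all 4 animals under both conditions, by -1.47 to -0.67 on the log2 scale without TNF and -1.19 to -0.38 with it. Cgnl1 fell with PFM037 (log2 -0.998, SE 0.10, adjusted p = 0.000231), by 1.06 without TNF and by 0.94 with it, and was additive within 1.5-fold (equivalence adjusted p = 0.0309). Ear1, a ribonuclease of eosinophil granules, stood at 20.01, 16.3, 3.94 and 3.56 CPM with vehicle, 34.2, 30.6, 6.96 and 6.56 with PFM037, 33.9, 21.4, 4.22 and 3.58 with TNF and 53.2, 40.9, 7.57 and 5.26 with both. Animals 1 and 2 held more of it than animals 3 and 4, and PFM037 libraries were the higher of each of the 8 pairs. Ear1 rose with PFM037 (log2 0.80, SE 0.10, adjusted p = 0.000995), by 0.86 without TNF and 0.73 with it, and was additive within 1.5-fold (equivalence adjusted p = 0.0268). Ear1, Ear2 and Ear6 are close copies of each other, so their reads may have been shared. Ear2 gave 0.67 without TNF and 0.57 with it. The list of mast cell, basophil and eosinophil markers, to which the Ear genes belong, had 18 of 19 members tested. Of these 7 rose and 0 fell with PFM037, against 2.17% and 2.8% of all genes. The list's median interaction was -0.10 (-0.24, -0.17, 0.22 and 0.12 in animals 1 to 4). The part of these cells in the Ear values was not tested.

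Arg1, which encodes arginase, had the largest PFM037 effect of the named genes, with levels dominated by animal 1. It stood at 72.5, 2.20, 3.07 and 1.45 CPM with vehicle, 7.30, 0.772, 2.05 and 0.741 with PFM037, 28.7, 1.16, 13.3 and 7.503 with TNF and 11.2, 1.22, 1.12 and 2.33 with both. Animal 1 was the highest in every group. Arg1 fell with PFM037 (log2 -2.07, SE 0.40, adjusted p = 0.00771), and missed the threshold without animal 1 (log2 -1.52, adjusted p = 0.0839). Its interaction was 1.95, 1.45, -2.88 and -0.77 in animals 1 to 4, and in the fit 0.41 with 95% limits of -1.24 and 2.07. Mrc1, the mannose receptor of tissue macrophages, stood at 194, 28.8, 72.8 and 90.7 CPM with vehicle, 56.9, 11.2, 65.5 and 67.3 with PFM037, 47.1, 6.75, 40.5 and 44.1 with TNF and 15.8, 4.15, 27.3 and 29.5 with both. Animal 2 was the lowest in each group. Mrc1 fell with PFM037 (log2 -0.90, SE 0.18, adjusted p = 0.00981) and with TNF (log2 -1.46, SE 0.18), with an interaction of 0.17 (SE 0.35), and its PFM037 call was lost without animal 1 (log2 -0.62, adjusted p = 0.0602). The fatty acid receptor Cd36 fell with PFM037 (log2 -0.67, SE 0.09, adjusted p = 0.00161) and with TNF (log2 -0.43, SE 0.09), and was additive within 1.5-fold (equivalence adjusted p = 0.02). Of the other genes lowered most by PFM037, the elastase Mmp12 had an interaction of -0.06 (SE 0.27), the imprinted gene Mest -0.11 (SE 0.45) and the endothelin receptor Ednrb -0.14 (SE 0.48). Of those raised most, the lipoxygenase Alox15 had 0.09 (SE 0.23), Ear6 0.31 (SE 0.23), the neutrophil surface protein Ly6g 0.34 (SE 0.21) and the inhibitory receptor Btla 0.39 (SE 0.22). For Btla the PFM037 effect was 0.48 without TNF and 0.87 with it, and for Ly6g 0.39 and 0.73. Leaving out animals 1, 2 or 4 ended the PFM037 call of Ednrb and of some of Mest, Ear6 and Ly6g (adjusted p = 0.0578 to 0.176), and Ednrb also missed it in fits without a single library (adjusted p up to 0.107).

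The levels with both treatments were set against 2 predictions made from the 3 other groups, the product of the separate fold changes and the sum of the separate differences in CPM. Both predictions were made within each animal and averaged. The thresholds of this comparison were chosen after the values had been seen. Among 384 genes with at least 5 CPM that passed for both averaged effects, 213 lay nearer the product and 171 nearer the sum, with a median miss of 7.17% and 8.45% of the measured level, so most of them could not tell the predictions apart. In the 20 of these genes with a TNF effect of at least 2-fold and a PFM037 effect of at least 0.5 on the log2 scale, 18 lay nearer the product, with a median miss of 13.6% against 53.3% for the sum. Within animals the product was nearer in 15, 17, 13 and 6 of the 20 genes in animals 1 to 4, so animal 4 went the other way. The averaged effects that chose these genes include the group being predicted. Of 23 genes chosen by effects of the same size in the single-treatment groups alone, at an unadjusted p under 0.05, 18 lay nearer the product, with a median miss of 13.0% against 43.4%, and in animal 4 it was 8. These counts are a description of chosen genes and not a measure of fit to the product. Within an animal the product lies below the sum wherever 1 treatment raises a gene and the other lowers it. The separate effects had opposite signs in 15 of the 20 genes and in 12 of the 23. For such a gene a level under both predictions counts as nearer the product, however far it falls short. For Gas6 the product predicted 8.95 CPM and the sum -1.06 CPM, a level that cannot exist, and 8.89 ± 3.62 CPM was measured (SD, n = 4). For Mrc1 the predictions were 21.4 and -11.7 CPM, and 19.2 ± 11.7 CPM was measured. Cxcl1, a neutrophil-attracting chemokine, and Saa3, an acute phase protein, were named after their values were seen. Cxcl1 was predicted at 19.1 CPM by the product and 24.9 CPM by the sum, with 16.2 ± 3.56 CPM measured, and Saa3 at 43.4 and 59.9 CPM, with 38.7 ± 4.51 CPM measured. Both measured means lay under both predictions. The genes that lay nearer the sum were Sdc4, a heparan sulfate proteoglycan, and Tnfsf4, the ligand OX40L, both named for that count, and Tnfsf4 lay far below either prediction, at 12.4 ± 10.6 against 33.1 and 32.3 CPM.

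**Figure D3:**
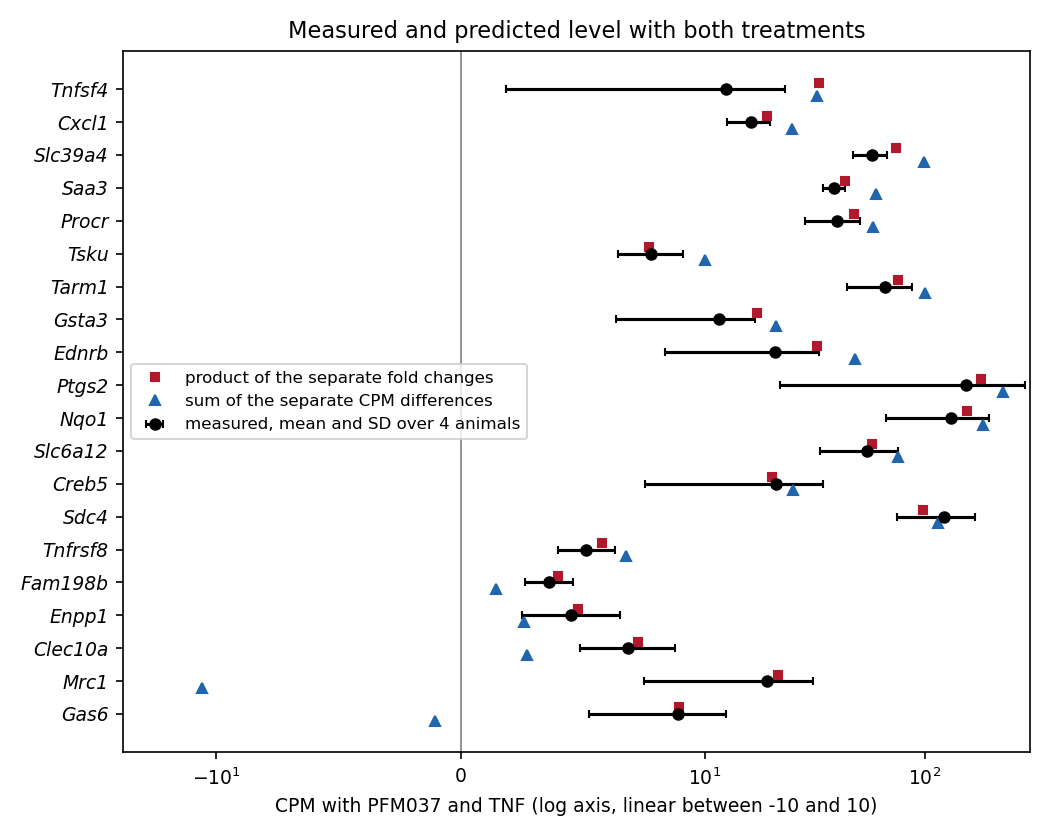
Level with PFM037 and TNF in CPM (x axis, log scale and linear between -10 and 10) for the 20 genes with the larger effects of both treatments; black points are the measured mean and SD over 4 animals, which includes the difference in level between animals, squares the product of the fold changes and triangles the sum of the differences. The squares lie nearer the black points than the triangles do in 18 of 20 genes, in some of which the black point lies under both. The sum falls below 0 for Gas6 and Mrc1.

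Across the 26 pathway lists the median interaction ran from -0.23 to 0.43 on the log2 scale, 17 lay within 0.10 of 0, and 0 members passed the test. The medians were above 0 for 17 lists and below 0 for 9, and 7 lists had the same sign in all 4 animals. The list furthest above 0 was that of the interferon-stimulated genes and the list furthest below was glycolysis and the hypoxia response. The lists with the highest shares of members additive within 1.5-fold were oxidative phosphorylation (33 of 33, median -0.06), the cytosolic ribosomal proteins (35 of 35, median -0.11), DNA replication and mitosis (39 of 40, median 0.08) and the lysosome and autophagy genes (34 of 35, median 0.02). For comparison, 64.8% of all genes and 96.6% of those with a mean of 50 CPM or more were additive within 1.5-fold. The lists were not matched for level, so their counts, here and below, are not read as a trait of the list. Of the 35 ribosomal protein genes, 34 lay below 0, whereas 54.4% of all genes lay above it.

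**Figure D4:**
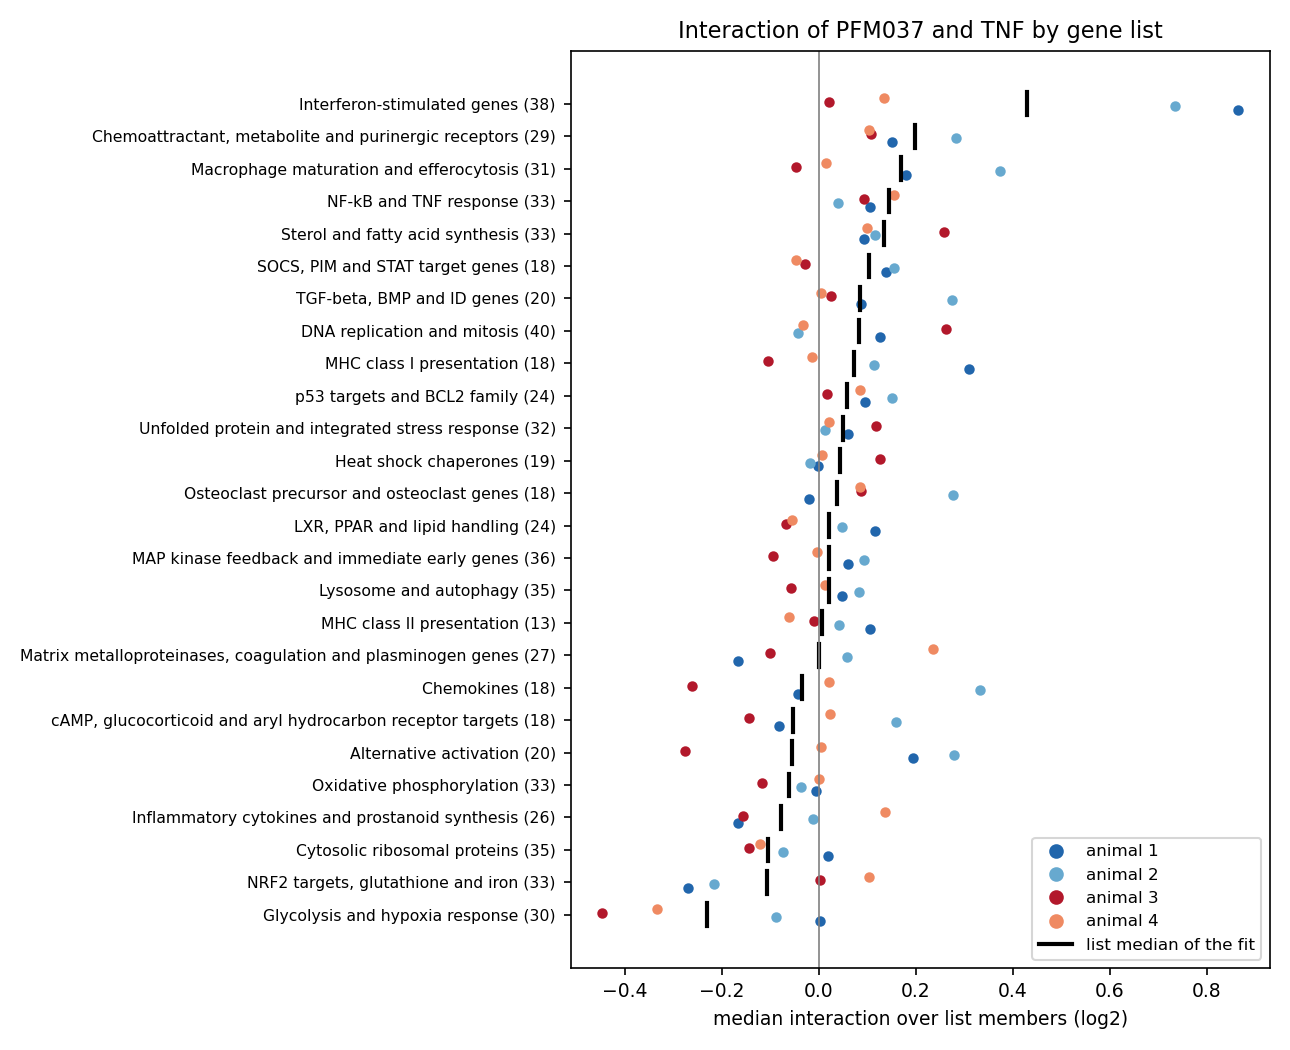
Median interaction over the tested members of each of 26 pathway lists (number tested in parentheses), in log2 per animal (points) and in the fit over all animals (bars). Interferon-stimulated genes lie furthest above 0, at 0.86 and 0.73 in animals 1 and 2 against 0.02 and 0.13 in animals 3 and 4, and glycolysis and hypoxia genes furthest below, at -0.45 and -0.33 in animals 3 and 4 against 0.00 and -0.09 in animals 1 and 2.

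Interferon-stimulated genes, which encode antiviral effectors and many of which carry a promoter element called the ISRE, had a median interaction of 0.43. Of the 38 genes of the list, all 38 were tested, and 35 lay above 0 against 54.4% of all genes. At an unadjusted p under 0.05 there were 6, against 2.76% of all genes, and 0 passed the adjusted threshold. In the fit with no filter on low counts 11 passed, among 34 of all 30556 genes. That fit replaced each gene's own spread by the trend over all genes. By animal the medians were 0.86, 0.73, 0.02 and 0.13, against 0.02, 0.01, 0.02 and 0.03 over all genes. The list's median was 0.27 without animal 1, 0.30 without animal 2 and 0.54 without either animal 3 or animal 4. The median effect of PFM037 was -0.01 without TNF and 0.37 with it, and that of TNF was 0.35 without PFM037 and 0.74 with it. Averaged over PFM037, 30 members rose with TNF, against 17.8% of all genes. Averaged over TNF, 2 rose with PFM037, against 2.17% of all genes. The level of the list differed by animal. With vehicle its median, relative to each gene's mean over libraries, was -1.53 and -1.81 on the log2 scale in animals 1 and 2, and 1.08 and 1.04 in animals 3 and 4. With both treatments it was -0.15, -0.83, 1.38 and 1.503 in animals 1 to 4. The part of this difference in level in the interaction was not tested.

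Among the members named by rule, Ddx60, a helicase of the antiviral response, had the smallest p. It stood at 7.68, 6.16, 53.9 and 58.9 CPM with vehicle in animals 1 to 4, 5.81, 6.79, 56.7 and 56.5 with PFM037, 10.6, 9.49, 62.5 and 78.6 with TNF and 19.5, 19.0, 84.8 and 102 with both. In every animal the library with both treatments was the highest of the 4, whereas PFM037 alone lay below vehicle in animals 1 and 4 and above it in animals 2 and 3. The PFM037 effect was -0.04 without TNF and 0.65 with it, an interaction of 0.69 (SE 0.20, adjusted p = 0.99988), and 1.27, 0.86, 0.37 and 0.43 in animals 1 to 4. Irgm1, an interferon-inducible GTPase, stood at 37.5, 30.4, 155 and 153 CPM with vehicle, 32.6, 27.1, 162 and 168 with PFM037, 46.6, 30.2, 142 and 162 with TNF and 65.2, 43.6, 187 and 200.2 with both. Again the library with both treatments was the highest in each animal. The interaction of Irgm1 was 0.45 (SE 0.15), and 0.68, 0.69, 0.33 and 0.16 in animals 1 to 4. Ifi209, a DNA sensor family member outside the list, had 0.56 (SE 0.18) with 0.98, 1.03, 0.08 and 0.27 by animal, and the chemokine Cxcl10, an interferon target kept in the chemokine list, 0.65 (SE 0.35). None of these passed.

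The promoter windows of Ddx60 and Irgm1 are shown because these were the 2 members of the list named for the smallest p. Each holds the ISRE core, GAAA and GAAA set 2 bases apart, in capitals. The windows run from 250 bases before to 50 after the annotated start, from RefSeq on GRCm38.p6, with Ddx60 at chr8:61927837-61928136 on the plus strand and Irgm1 at chr11:48871371-48871670 on the minus strand.
Ddx60: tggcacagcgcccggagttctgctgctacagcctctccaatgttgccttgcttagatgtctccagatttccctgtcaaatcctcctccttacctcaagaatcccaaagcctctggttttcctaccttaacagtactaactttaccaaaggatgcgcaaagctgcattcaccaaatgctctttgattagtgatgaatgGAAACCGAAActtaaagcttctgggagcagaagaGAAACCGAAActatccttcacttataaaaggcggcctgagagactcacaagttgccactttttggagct
Irgm1: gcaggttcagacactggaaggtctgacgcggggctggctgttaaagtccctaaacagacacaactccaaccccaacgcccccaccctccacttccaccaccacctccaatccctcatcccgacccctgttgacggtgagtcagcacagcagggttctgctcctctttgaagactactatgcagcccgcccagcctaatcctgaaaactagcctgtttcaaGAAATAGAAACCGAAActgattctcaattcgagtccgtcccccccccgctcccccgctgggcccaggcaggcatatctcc
Ddx60 holds the core 2 times, and Irgm1 2 times in overlapping copies. Counted on either strand, 1131 of 32851 promoter windows of that length (3.44%) hold the core, and 19 of the 28 listed genes with a window (67.9%) hold it in the window read for them, against 317 of 9564 tested genes (3.31%). A match is a description of letters and not a binding site.

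Glycolysis and hypoxia genes, many of which are targets of the transcription factor HIF-1 that binds the core ACGTG, lay furthest below 0. All 30 genes of the list were tested, 4 lay above 0 against 54.4% of all genes, 10 had an unadjusted p under 0.05 against 2.76% of all genes, 0 passed, and 19 were additive within 1.5-fold. The median interaction was -0.23, and 0.00, -0.09, -0.45 and -0.33 in animals 1 to 4. It ran from -0.32 without animal 1 to -0.17 without animal 3. The median TNF effect of the list was 0.36 without PFM037 and 0.09 with it. Averaged over PFM037, 18 members rose with TNF and 3 fell, against 17.8% and 19.3% of all genes. The median PFM037 effect was -0.07 without TNF and -0.28 with it. On average 4 members fell with PFM037 and 0 rose, against 2.8% and 2.17% of all genes. Relative to each gene's mean over libraries, the list stood at -0.47, -0.41, 1.00 and 0.87 with TNF in animals 1 to 4, and at -0.36, -0.51, 0.48 and 0.49 with both treatments.

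Ankrd37, a HIF-1 target, had the interaction furthest below 0 among the named genes. It stood at 1.30, 0.501, 9.41 and 6.83 CPM with vehicle, 1.10, 0.662, 11.7 and 7.57 with PFM037, 3.27, 1.83, 19.6 and 16.0 with TNF and 2.30, 0.638, 7.32 and 11.0 with both in animals 1 to 4. In every animal TNF alone gave the highest level, and animals 1 and 2 held few reads. The interaction was -1.10 (SE 0.31, adjusted p = 0.99988), and -0.26, -1.69, -1.71 and -0.68 in animals 1 to 4. Aldoc, the glycolytic enzyme aldolase C, stood at 5.61, 5.51, 33.0 and 24.9 CPM with vehicle, 5.27, 5.46, 24.8 and 20.1 with PFM037, 7.09, 8.88, 48.6 and 42.3 with TNF and 4.93, 6.54, 23.6 and 23.4 with both. TNF alone gave the highest level in every animal, and the level with both treatments was under that with vehicle in 3 of 4. Aldoc rose with TNF (log2 0.34, adjusted p = 0.00405) and fell with PFM037 (log2 -0.50, adjusted p = 0.00368). Its PFM037 effect was -0.25 without TNF and -0.75 with it, an interaction of -0.51 (SE 0.16), and -0.42, -0.42, -0.63 and -0.54 by animal.

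Their promoter windows are given because both genes are taken as hypoxia targets, with the core ACGTG, read on either strand, in capitals. Ankrd37 is read at chr8:45999801-46000100 on the minus strand and Aldoc at chr11:78322823-78323122 on the plus strand (RefSeq, GRCm38.p6). For Ankrd37 the RefSeq start is 5857 bases inside the gene as placed by the annotation used for gene positions, so the window is upstream of the RefSeq start alone. For Irgm1 and Aldoc the starts in these annotations differ by 263 and 105 bases.
Ankrd37: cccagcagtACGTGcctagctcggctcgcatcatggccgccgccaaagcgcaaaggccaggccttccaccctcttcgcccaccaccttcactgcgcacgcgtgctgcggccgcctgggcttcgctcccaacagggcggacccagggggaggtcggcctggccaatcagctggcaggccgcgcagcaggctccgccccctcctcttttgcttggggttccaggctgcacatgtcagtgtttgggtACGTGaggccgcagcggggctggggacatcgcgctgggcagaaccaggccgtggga
Aldoc: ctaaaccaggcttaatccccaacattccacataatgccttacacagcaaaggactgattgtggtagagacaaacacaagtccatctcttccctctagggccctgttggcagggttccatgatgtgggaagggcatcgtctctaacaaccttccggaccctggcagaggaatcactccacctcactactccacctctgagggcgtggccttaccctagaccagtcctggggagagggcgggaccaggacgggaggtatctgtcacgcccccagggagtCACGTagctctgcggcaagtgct
Ankrd37 holds the core 2 times and Aldoc 1 time. On either strand 6447 of 32851 windows (19.6%) hold it, and 17 of the 27 listed genes with a window (63%) do, against 2490 of 9564 tested genes (26%).

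**Figure D5:**
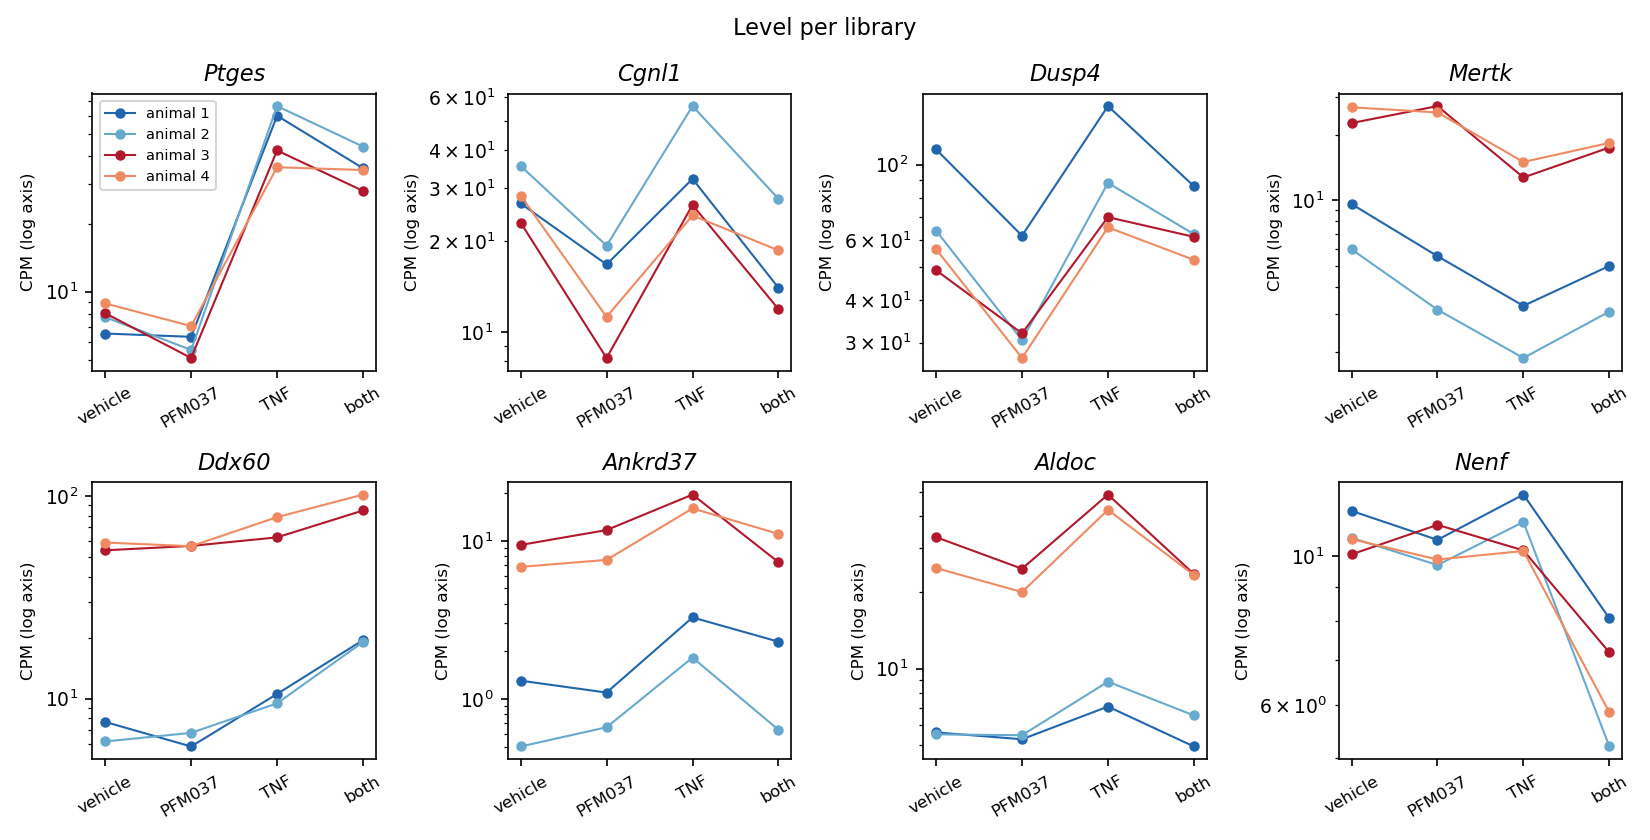
Level per library in CPM (log axis) of 8 genes under vehicle, PFM037, TNF and both treatments, with a line per animal. Ptges and Cgnl1 are lower with PFM037 than in the matching control in each animal with and without TNF, by amounts that differ between animals, Ddx60 is highest with both treatments in each animal, and the level of Nenf with both treatments (5.21 to 8.09 CPM) lies under all 12 other libraries.

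Nenf, which encodes the secreted protein neudesin, had the smallest unadjusted p among the genes named below 0. It stood at 11.7, 10.7, 10.1 and 10.6 CPM with vehicle, 10.6, 9.71, 11.1 and 9.90 with PFM037, 12.4, 11.3, 10.2 and 10.2 with TNF and 8.09, 5.21, 7.19 and 5.86 with both in animals 1 to 4. The 4 libraries with both treatments lay under all 12 others, and those 12 overlapped. The interaction was -0.70 (SE 0.16, unadjusted p = 0.000472, adjusted p = 0.99988), and -0.46, -0.96, -0.64 and -0.69 by animal. PFM037 gave -0.06 without TNF and -0.76 with it. Mgst2, a microsomal glutathione transferase, stood at 30.7, 40.5, 22.8 and 19.3 CPM with vehicle, 35.2, 49.6, 20.9 and 16.7 with PFM037, 46.2, 51.5, 23.7 and 19.6 with TNF and 30.8, 38.2, 17.2 and 16.0 with both. Animals 1 and 2 were high in every group, and TNF alone was above both treatments together in each animal. Its interaction was -0.51 (SE 0.13), and -0.78, -0.72, -0.33 and -0.09 by animal.

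The other genes named below 0, none past the threshold, were the oxidoreductase Htatip2 (-0.31), the adhesion molecule Icam2 (-0.37), the red cell membrane gene Gypc (-0.65), the spectrin Sptb (-0.66), A530017D24Rik (-0.44) and the oxidative stress gene Osgin1 (-0.40). Htatip2 was at the same time additive within 1.5-fold (equivalence adjusted p = 0.00408). Osgin1 is an NRF2 target. The list of NRF2 targets, glutathione and iron genes had a median interaction of -0.11. Whereas 54.4% of all genes lay above 0, 30 of its 33 genes lay below 0. Its medians were -0.27, -0.22, 0.00 and 0.10 in animals 1 to 4, so the animals differed in sign. In that list 22 genes rose and 4 fell with TNF, against 17.8% and 19.3% of all genes. With PFM037, 1 rose and 14 fell, against 2.17% and 2.8%, and 25 of 33 were additive within 1.5-fold. The glutathione transferase Gstm1 had -0.28 (SE 0.13), the glutathione reductase Gsr -0.23 (SE 0.11) and the heme oxygenase Hmox1 -0.26 (SE 0.17).

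Above 0, Mertk, a receptor that binds Gas6 and serves the uptake of dying cells, had the largest interaction of the named genes. It stood at 9.62, 5.96, 22.6 and 26.8 CPM with vehicle, 5.54, 3.15, 27.1 and 25.4 with PFM037, 3.27, 1.89, 12.7 and 15.0 with TNF and 5.00, 3.08, 17.5 and 18.4 with both in animals 1 to 4. TNF alone gave the lowest level in every animal. Mertk fell with TNF (log2 -0.77, SE 0.11, adjusted p = 5.35e-05). Its PFM037 effect was -0.30 without TNF and 0.48 with it, an interaction of 0.78 (SE 0.22, adjusted p = 0.99988), and 1.37, 1.57, 0.20 and 0.37 in animals 1 to 4. Animals 1 and 2 thus held the larger values. The macrophage maturation and efferocytosis list had 31 of 34 members tested and a median interaction of 0.17 (0.18, 0.37, -0.05 and 0.02 by animal). Of its members 25 lay above 0, against 54.4% of all genes, and 18 were additive within 1.5-fold. With TNF 8 of its members rose and 18 fell, against 17.8% and 19.3% of all genes. With PFM037, 0 rose and 5 fell, against 2.17% and 2.8%. The transcription factor Maf had 0.32 (SE 0.11). Beside it, the 12 defining monocyte and macrophage markers had a median interaction of 0.06 and the 15 neutrophil markers 0.14 (0.14, 0.41, -0.05 and 0.16 by animal), and their part in these values was not tested.

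Dusp4, which dephosphorylates MAP kinases and so ends their signal, fell with PFM037 and rose with TNF. It stood at 111, 64.0, 48.9 and 56.4 CPM with vehicle, 61.8, 30.5, 31.9 and 27.0 with PFM037, 148, 88.4, 70.1 and 65.4 with TNF and 86.4, 62.5, 61.3 and 52.5 with both. In every animal PFM037 libraries lay below their controls, and animal 1 was the highest in each group. The PFM037 effect was -0.90 without TNF (adjusted p = 0.000891) and -0.45 with it (adjusted p = 0.0385). The interaction of 0.45 (SE 0.14) did not pass, and its values by animal were 0.06, 0.57, 0.42 and 0.74. The MAP kinase feedback and immediate early list as a whole had a median of 0.02, with 28 of 36 members additive within 1.5-fold, and Myc had 0.21 (SE 0.11).

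Ccnd1, the cyclin that M-CSF induces for entry into the cell cycle, stood at 207, 241, 89.5 and 101 CPM with vehicle, 229.7, 223, 97.2 and 113 with PFM037, 136, 148, 63.1 and 83.6 with TNF and 189, 182, 99.3 and 105 with both. TNF alone gave the lowest level in every animal. Ccnd1 fell with TNF (log2 -0.35, adjusted p = 0.000194) and rose with PFM037 (log2 0.26, adjusted p = 0.0184), with an interaction of 0.36 (SE 0.11), and 0.33, 0.40, 0.53 and 0.15 by animal. In the DNA replication and mitosis list all 40 genes were tested. Of these 36 fell with TNF and 19 rose with PFM037, against 19.3% and 2.17% of all genes. Of these members 39 were additive within 1.5-fold. The median PFM037 effect of the list was 0.18 without TNF and 0.26 with it, and the median interaction 0.08 (0.13, -0.04, 0.26 and -0.03 by animal). The spindle protein Nusap1 rose with PFM037 (log2 0.30, adjusted p = 0.00492) with an interaction of 0.22 (SE 0.11).

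The remaining genes named above 0 were Adap2 (0.47), the ubiquitin ligase Rnf144a (0.40), Rassf2 (0.32) and the VEGF receptor Kdr (0.55), with unadjusted p from 0.00175 to 0.00478 and none past the threshold. Rassf2 was additive within 1.5-fold (equivalence adjusted p = 0.0109), although its mean PFM037 effect was -0.09 without TNF and 0.23 with it.

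Sterol and fatty acid synthesis genes, which SREBP factors control, had a median interaction of 0.14, and 0.09, 0.12, 0.26 and 0.10 in animals 1 to 4. Of 33 tested members 29 lay above 0, against 54.4% of all genes. With TNF 24 of the members fell and 1 rose, against 19.3% and 17.8% of all genes. The median TNF effect of the list was -0.37 without PFM037 and -0.28 with it, and 28 members were additive within 1.5-fold. The synthase Hmgcs1 had 0.32 (SE 0.12) with 0.26, 0.33, 0.30 and 0.39 by animal, and the ketosteroid reductase Hsd17b7 0.44 (SE 0.15). Chemoattractant, metabolite and purinergic receptors had a median of 0.20, and 0.15, 0.28, 0.11 and 0.10 by animal. Of 29 members 23 lay above 0, against 54.4% of all genes, and 12 were additive within 1.5-fold. The median was 0.08 without animal 2. The UDP receptor P2ry6 had 0.39 (SE 0.14) and the adenosine receptor Adora2b 0.35 (SE 0.15). No member of either list passed.

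Inflammatory lists were mixed in sign. Chemokines, of which 18 of 24 were tested, had a median interaction of -0.04 (-0.04, 0.33, -0.26 and 0.02 by animal). With TNF 8 rose and 5 fell, against 17.8% and 19.3% of all genes, and 6 were additive within 1.5-fold. Cxcl3, a neutrophil attractant, had -0.33 (SE 0.18). In the list of inflammatory cytokines and prostanoid synthesis 26 of 30 were tested. With TNF 14 rose and 2 fell, against 17.8% and 19.3% of all genes. With PFM037, 0 rose and 7 fell, against 2.17% and 2.8%. This list had a median interaction of -0.08. Its member Il1rn, the interleukin-1 receptor antagonist, rose with TNF (log2 1.00, adjusted p = 6.64e-08) and fell with PFM037 (log2 -0.46, adjusted p = 0.00464), with an interaction of 0.30 (SE 0.16). The iron carrier Lcn2 had 0.24 (SE 0.14). MHC class I genes had a median of 0.07 with 17 of 18 additive within 1.5-fold, and MHC class II genes 0.01 with 10 of 13. The class I activator Nlrc5 had 0.27 and the class I gene H2-T22 0.15, and in class II H2-DMa had 0.12 and the costimulator Cd80 0.23.

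In the other lists, the ribosomal proteins apart, medians lay between -0.06 and 0.10. Alternative activation had -0.06, with 0.19, 0.28, -0.28 and 0.00 by animal, and its members Tgm2, a transglutaminase, and Cd83 had 0.38 (SE 0.22) and 0.27 (SE 0.26). Tgm2 fell with PFM037 (log2 -0.70, adjusted p = 0.00289) and rose with TNF (log2 0.87, adjusted p = 1.46e-05). Osteoclast genes had 0.04 and matrix metalloproteinase, coagulation and plasminogen genes -0.00. In both lists the gelatinase Mmp9 had the smallest p, with 0.47 (SE 0.18) and 0.46, 0.51, 0.41 and 0.45 by animal. Tnfrsf11a, the receptor RANK, had 0.20 and the plasminogen activator inhibitor Serpinb2 -0.33. The lists of SOCS, PIM and STAT targets (0.10), TGF-beta, BMP and ID genes (0.08), p53 targets and BCL2 family (0.06), unfolded protein and integrated stress response (0.05), heat shock chaperones (0.04), LXR, PPAR and lipid handling (0.02) and cAMP, glucocorticoid and aryl hydrocarbon receptor targets (-0.05) had 13 of 18, 15 of 20, 21 of 24, 29 of 32, 16 of 19, 19 of 24 and 12 of 18 members additive within 1.5-fold. Their named members were the survival gene Bcl2l1 (0.25), the kinase Pim3 (0.26), the SMAD repressor Ski (0.24), the matrix protein Tgfbi (0.20), the p53 target Zmat3 (0.35), the chaperones Pdia4 (0.19), Stip1 (0.13) and Dnajb4 (-0.20), the serine synthesis enzyme Phgdh (-0.20), the oxysterol receptor Nr1h3 (0.25), the cholesterol carrier Npc2 (0.12), the phosphodiesterase Pde4b (0.44) and the glucocorticoid target Tsc22d3 (-0.14), all as log2 interaction. For the remaining lists they were Gabarapl1 (-0.16) and Tfe3 (0.11) for lysosome and autophagy, Sdhd (-0.15) and Ndufb8 (-0.19) for oxidative phosphorylation, and Rpl37 (-0.25) and Rpl27 (-0.18) for ribosomal proteins.

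The genes whose libraries are given above lie, on GRCm38, at chromosome 1, 191306789 to 191318194 (minus strand) for Nenf, chromosome 2, 30889471 to 30929863 (minus strand) for Ptges, chromosome 2, 128698956 to 128802894 (plus strand) for Mertk, chromosome 8, 34807297 to 34819894 (plus strand) for Dusp4 and chromosome 9, 71626509 to 71771602 (minus strand) for Cgnl1. Ddx60 lies at chromosome 8, 61928087 to 62038244 (plus strand), Ankrd37 at chromosome 8, 45996902 to 46005707 (minus strand), Aldoc at chromosome 11, 78322968 to 78327781 (plus strand) and Irgm1 at chromosome 11, 48861968 to 48871683 (minus strand). All are annotated as protein-coding.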

How the data were processed

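The authors deposited a table of unnormalized whole-number counts, in which each row is a gene and each column a library. Per the labels' protocols, poly(A) RNA libraries were made with a stranded kit and read as single ends. The submitters' processing notes name STAR 2.5.3a, featureCounts and limma with mm10 (GRCm38). No source used here states the annotation release or strand setting of the counting, so overlapping, antisense and near-identical genes are uncertain. Of 50508 genes, 26 carry a date in place of a symbol, and the 19 of them that were tested are not named.

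Tests were run with edgeR 4.0.16 in R 4.3.3 (quasi-likelihood F-test, two-sided, Benjamini-Hochberg over all genes, threshold 0.05) with TMM scaling and filterByExpr (minimum count 10 and total 15), leaving 13856 genes. The model over 16 libraries held a mean per group and the animal as a block, leaving 9 residual degrees of freedom. Averaged effects are means of the effect with and without the other treatment. Additivity within 1.5-fold was tested with 2 one-sided tests at a log2 margin of 0.585, adjusted in the same way. CPM use TMM library sizes, and per-animal contrasts are log2 CPM with a prior count of 2. P-values of this model rest on a spread pooled over the differences between these 4 animals in the TNF effect, the PFM037 effect and the interaction. That spread is moderated by that of other genes. The spread of a single effect among animals is measured only by limma on a value per animal. Differences in level between animals are taken out by the block. Library totals of 9403232 to 21017905 counts limit the precision of low genes. The fitting code was tested on simulated data.

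The pairing comes from the labels, which name 4 animals, each present in every group. Deviations from group means correlated at 0.645 to 0.925 over the 24 pairs of libraries from the same animal (9817 genes). Libraries of a group differed by more than sampling noise, with 7.43 to 122 times the chi-square expected from counting.

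Genes named by rank had a proper symbol, at least 5 CPM on average and the same sign of that contrast in all 4 animals. They were the 10 above and 10 below 0 with the smallest interaction p (none passed), the 6 highest and 6 lowest averaged effects past the threshold for each treatment. No shared sign was asked of the fixed genes (Tnf, Tnfrsf1a, Tnfrsf1b, Csf1r, Nfkbia, Tnfaip3, Dusp4, Cd36, Ptges, Gas6, Hmox1), nor of the 2 members of each list with the smallest p at 5 CPM or more. The members, lists and rules were chosen with earlier results of these data known. Lists come from textbook knowledge and were described by counts and medians, with no test. Alternatives were no block, size factors of DESeq2 1.42.0, library size alone, no filter, a filter that asks for 5 CPM in 4 or more libraries, DESeq2, limma-voom (limma 3.58.1), limma on a value per animal, log2 margins of 0.322 and 1, and each animal or library left out. Promoter windows and gene positions were read from RefSeq on GRCm38.p6 and from a GRCm38 annotation in which all 95 named symbols were found.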

Additional observations from a re-analysis of the deposited data

Results flagged for a closer look

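Samples that stood apart from the other 3 of their group were found in 8 of 102 groups of 4 values examined, where chance gives about 1 in 20. The vehicle library of animal 4 had 14114700 counts, against 19327000 to 20125100 in the other vehicle libraries. Arg1 stood at 72.5 CPM in the vehicle library of animal 1, against 1.45 to 3.07 CPM in the other vehicle libraries, and at 11.2 CPM in its library with both treatments, against 1.12 to 2.33 CPM. Dusp4 stood at 61.8 CPM in the PFM037 library of animal 1, against 27.0 to 31.9 CPM. With TNF alone Nfkbia stood at 398 CPM in animal 4, against 623 to 659 CPM in the others. In animal 2 with TNF alone Gas6 stood at 5.48 CPM, against 13.8 to 14.6 CPM, and Mrc1 at 6.75 CPM, against 40.5 to 47.1 CPM. The median interaction of the sterol and fatty acid synthesis list was 0.26 in animal 3, against 0.09 to 0.12 in the other animals.

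For 5 named genes every animal had a PFM037 effect of one sign without TNF and of the other sign with it. Adap2 had a mean effect of -0.22 without TNF and 0.26 with it, a difference of 0.48 on the log2 scale. Rassf2 had -0.09 and 0.23, a difference of 0.31. A530017D24Rik had 0.25 and -0.20, a difference of -0.44. Tnfrsf11a had -0.08 and 0.13, a difference of 0.21. Zmat3 had -0.16 and 0.23, a difference of 0.38. The opposite signs were not tested as such, and the interaction test across all genes passed for none of the 5 (adjusted p = 0.99988). All 5 had been named for a small interaction p, over all genes or within a list. Adap2, Rassf2 and A530017D24Rik had also been chosen for the same sign of the interaction in every animal. Such choices make opposite signs more likely. The share of genes with opposite signs among all genes tested was not counted, so the 5 are not read as unusual.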

How the results depend on the processing

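The count of genes past the threshold for the interaction was 0 under every setting run except the fit with no filter beyond a count above 0, which called 34 genes (24 above and 10 below 0), with 19 places among the lists' members. That fit tested 30556 genes and estimated infinite prior degrees of freedom (7.68 with the filter), so each gene's own spread was replaced by the trend. For Oasl2 the SE of the interaction was 0.117 there and 0.394 with the filter. It called 11 interferon-stimulated genes, all above 0, and 2 glycolysis and hypoxia genes, and among the named genes Mertk, Ddx60, Ifi209, Ankrd37, Gypc and Mmp9. The PFM037 count was 1097 in that fit. Without the animal as a replicate block TNF changed 1280 genes and PFM037 0, the interaction stayed at 0 (91 genes at an unadjusted p under 0.05) and 4680 genes were additive within 1.5-fold. Limma on a value per animal gave 1709 genes for TNF and 0 for PFM037, for which the spread among 4 values was used in place of that of 16 libraries. A narrower log2 margin of 0.322 gave 1301 additive genes and a wider one of 1 (2-fold) 11390. With an animal or a library left out, the interaction count stayed at 0, the TNF count ran from 3467 to 5430, the PFM037 count from 124 to 776 and the additive count from 7882 to 8781.

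Interactions near 0 changed sign in some fits. Leaving out an animal or a library gave -0.0112 to 0.21 for H2-T22, -0.000255 to 0.19 for H2-DMa, -0.33 to 0.0210 for Ptges, -0.31 to 0.0441 for Tnf, -0.0359 to 0.38 for Gas6, -0.0690 to 0.0317 for Csf1r and -0.13 to 0.15 for Tnfrsf1b. Tnfrsf1b was also at -0.000911 when 5 CPM in 4 or more libraries were required. None of the 10 genes named above 0 and the 10 named below 0 for the smallest p over all genes changed the sign of its interaction in any fit. They had been chosen for the same sign in all 4 animals, so this was largely fixed by the choice and adds no support. Scaling by library size alone moved the median TNF effect over all genes to -0.08 (-0.02 with TMM) and the median PFM037 effect to 0.04 (0.004 with TMM). The depth limits the test mainly below 5 CPM, where the margin of error was 0.91 on the log2 scale.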
